A study of Mus musculus with 22 samples.

Results

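The effect of dietary cuprizone on microglia of wild-type (WT) mice kept on normal chow was measured on 5 of the 22 mouse gene arrays of this series. The 3 arrays labelled as WT with cuprizone only were set against the 2 arrays labelled as the WT negative control, and every gene that could be measured entered the comparison. The array is the Affymetrix MoGene 1.0 ST, which carries probes along whole transcripts. Of 19937 genes with a probe set of their own, 11830 lay above the array median on at least 2 arrays and were tested. The WT cuprizone mice had received normal chow for 2 weeks and then feed with 0.2% cuprizone. The protocol names a course of 4 weeks and a longer one that ended on normal chow, the array labels name only 4 weeks, and the WT control arrays are labelled only as the negative control. No transgene, Cre driver or deletion is named for either group. Brains of perfused mice were dissociated with enzymes and cleared of myelin, and cells positive for CD11b, CD45 and F4/80 were sorted as microglia. That gate can also hold macrophages of the brain's borders and monocytes. Strain, age and sex of the mice, and whether an array stands for 1 animal or several, are given neither by the labels nor by the protocol text, so the p-values measure only the spread between these samples. For comparison, 3 WT arrays with cuprizone and Covi-Ox, a tocopherol (vitamin E) mixture at 0.1% of the feed, were set against 3 with Covi-Ox alone, and 3 arrays with cuprizone from mice lacking Trem2 (KO) against 2 KO controls.

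Cuprizone binds copper and, fed to mice, causes oligodendrocytes to die, which leaves myelin debris in the brain. Microglia take up this debris, which is rich in cholesterol and sphingolipids, break it down in lysosomes and hand the lipid on, and they signal to the progenitors that rebuild myelin. Microglia around damaged myelin, plaques or dying neurons are known to take on a state called disease-associated microglia (DAM), in which genes of phagocytosis, lipid handling and lysosomes are raised and homeostatic genes such as P2ry12 and Tmem119 are lowered. The late stage of that state depends on Trem2.

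The genes of the sorted markers were measured on all 5 arrays. Itgam, which encodes CD11b, had 10.40, 10.41 and 10.54 (log2 intensity) on the cuprizone arrays, against 10.37 and 10.41 on the control arrays. Ptprc, which encodes CD45, had 9.86, 9.80 and 9.83 on the cuprizone arrays, against 9.62 and 9.69 on the control arrays, and Adgre1, which encodes F4/80, had 9.74, 9.76 and 9.75 on the cuprizone arrays, against 9.86 and 9.79 on the control arrays. None of the 3 was called, and the microglial genes P2ry12 and Tmem119 read between 11.20 and 11.79, far above the array medians of 5.17 to 5.22. Of 6 oligodendrocyte markers none was called (median change 0.02), and none of 7 astrocyte, 4 T and NK cell or 9 neutrophil markers was. The summed intensity of the neutrophil list was 3054, 2033 and 1313 on the cuprizone arrays, against 3983 and 3930 on the control arrays, so it was lower on every cuprizone array. Its main member S100a8, an alarmin of granulocytes, had 9.68, 9.01 and 8.01 on the cuprizone arrays, against 10.43 and 10.34 on the control arrays (adjusted p = 0.294). Of 12 border macrophage markers only Pf4 was called, lower, and the list's median was -0.36. Of the 12, 11 had a negative change, and 8 lay below both controls on every cuprizone array, against 17.6% of all genes tested. On the Covi-Ox diet the list's median was -0.61, with 4 members called lower. The median of the 9 neutrophil markers was -0.84 on chow, or -0.29 without WT cuprizone 3, and 0.40 on the Covi-Ox diet. There 1 of them was called higher. The 10 monocyte markers had a median of -0.11 on chow and of 0.95 on the Covi-Ox diet, where 4 were called higher. The part of these cells in the results below was not tested, and in sorted bulk samples fewer cells of a type and less RNA per cell cannot be told apart.

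WT cuprizone 3 stood apart from the other 2 cuprizone arrays. The log2 difference between WT cuprizone 1 and 2 had an SD of 0.232 over the 11830 genes, close to the 0.24 between the 2 controls, whereas WT cuprizone 3 differed from WT cuprizone 1 and 2 by 0.403 and 0.406. Immediate-early genes, which are induced within minutes of a stimulus such as tissue dissociation, averaged 9.71, 9.66 and 8.31 (log2 intensity, 29 genes) on the cuprizone arrays, against 9.59 and 9.68 on the control arrays. Only WT cuprizone 3 was low, and apart from 2 KO cuprizone arrays (8.54 and 8.59) all other arrays of the series lay between 9.48 and 9.76. Changes are given below with all 5 arrays and, where a call turns on it, without WT cuprizone 3. The part of dissociation or handling in the results was not tested.

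Cuprizone raised far more genes by a large factor than it lowered. Of the 11830 genes 296 (2.5%) were called at an adjusted p under 0.05, 213 of them higher (1.8%) and 83 lower (0.702%), and the unadjusted p was under 0.05 for 1980. Among the called genes 98 were at least 2-fold higher, and only Dnajb1, Bank1 and Nabp1 were at least 2-fold lower. All 3 cuprizone arrays lay above both controls for 1810 genes (15.3%) and below both for 2077 (17.6%), which is the background against which a gene whose groups do not overlap is read. The median change over all genes tested was -0.02 on the log2 scale, and the median standard error of a change was 0.151. Without WT cuprizone 3 the calls were 114 higher (0.964%) and 12 lower (0.101%), of which 109 and 10 were among those of the 5 arrays. With each of the 5 arrays left out in turn, 44 rises and none of the 83 falls stayed called throughout. Without WT control 1 there were 60 higher and 9 lower calls, and without WT control 2 there were 84 and 3. Fitted on the 5 arrays alone, 9 genes were called, all higher: Clec7a, Csf1, Cxcr4, Fam20c, Gas2l3, Itgax, Lgals3, Lpl and Mmp12, of which Gas2l3 is named for that count. That fit, in limma with 3 residual degrees of freedom, gave an unadjusted p under 0.05 for 696 genes that were higher and 642 that were lower. For 40 of the 213 rises the control mean lay below the array medians, where intensity is mostly background, so that their log2 changes are not exact. Among the genes given below this holds for Atp6v0d2, Bhlhe40, Birc5, Cd300lf, Cd44, Ch25h, Ctse, Cxcl14, Egln3, Fam20c, Flt1, Fn1, Gpnmb, Ifit1, Ifit2, Mmp12, Olr1, Slfn5 and Tnfsf8.

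**Figure D1:**
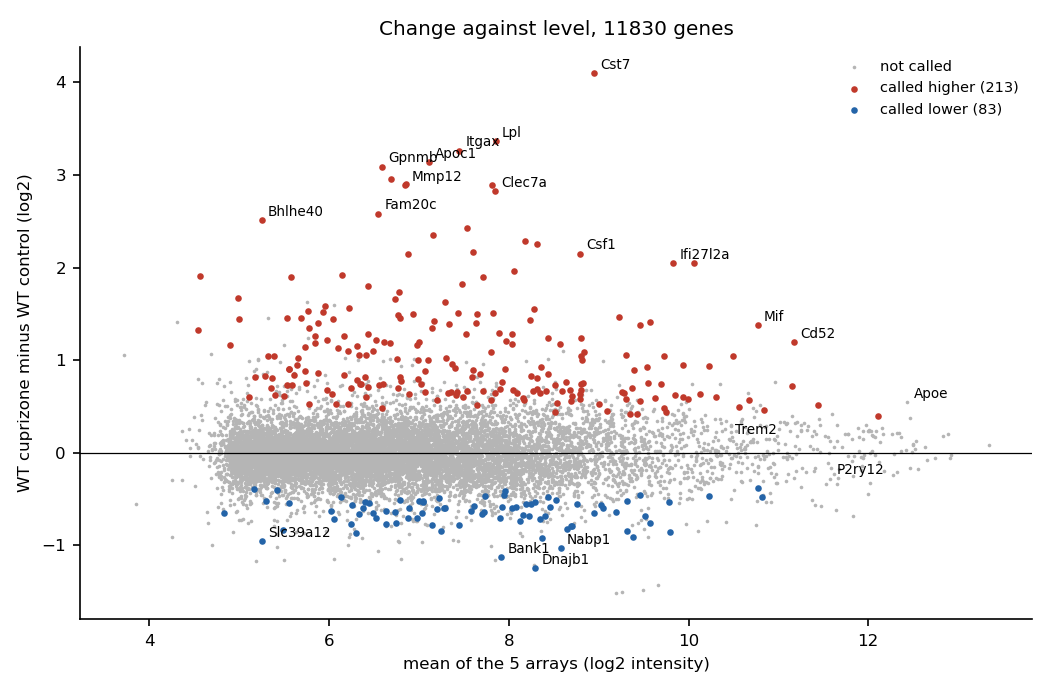
Log2 change (WT cuprizone minus WT control, vertical) against the mean log2 intensity of the 5 arrays (horizontal) for 11830 genes, each point a gene, with 213 genes called higher in red and 83 called lower in blue. The rises reach 4.10 (Cst7), while the deepest called fall is -1.25 (Dnajb1).

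The listed late DAM genes were higher as a group in WT cuprizone microglia. The list was chosen with earlier results of these data known, so its counts and median are not a test. Of 22 measured members 18 were called higher and none lower, against 1.8% of all genes tested called higher. All 22 lay above both controls on every cuprizone array, against 15.3% of all genes tested, and the list's median change was 2.16. Without WT cuprizone 3 the median was 1.94 and again 18 were called. Cd9, Cd63, Ctsl and Timp2 are the 4 uncalled members, the last named after its values were seen. Cst7, which encodes cystatin F, an inhibitor of lysosomal cathepsins, had the largest rise of all called genes. It read 9.84, 10.16 and 11.75 on the cuprizone arrays, against 6.19 and 6.77 on the control arrays. The change was 4.10 ± 0.40 (17.2-fold, adjusted p = 4.67e-06), and its 2 controls differed by more than those of any other late DAM gene. Itgax, the integrin CD11c that marks these cells in many brain lesions, read 8.24, 8.48 and 9.54 on the cuprizone arrays, against 5.50 and 5.47 on the control arrays, a change of 3.26 ± 0.25. Axl, a receptor tyrosine kinase that recognises dying cells through bridging ligands, had 8.46, 8.65 and 9.78 on the cuprizone arrays, against 6.18 and 5.97 on the control arrays, a change of 2.89 ± 0.24. The cuprizone arrays of both genes lay far above the controls, with WT cuprizone 3 highest. Of the 4 receptors and ligands of its family only Axl was called, while the related receptor Mertk (-0.26 ± 0.17) and the ligands Gas6 (0.32 ± 0.19) and Pros1 (0.20 ± 0.19) were not called. The beta-glucan receptor Clec7a had 8.62, 8.67 and 9.64 on the cuprizone arrays, against 6.04 and 6.26 on the control arrays, and its change was 2.83 ± 0.21. Gpnmb, a glycoprotein of macrophages under lysosomal load, changed by 3.09 ± 0.34, from controls below the array median. Of the 18 late DAM calls 12 held with any 1 of the 5 arrays left out, those of the 5 genes described here among them. Without WT control 1 the calls of Apoc1 (3.11), Ch25h (2.93), Ccl6 (1.29) and Ctsz (0.67) were lost, and without WT control 2 those of Apoc1 (3.17), Ch25h (2.97), Ank (1.45) and Cadm1 (0.53).

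The growth factors Csf1 and Igf1 and the galectin Lgals3 of the late DAM list were higher too, Csf1 and Lgals3 by about as much on each of the 3 cuprizone arrays. Csf1, the ligand of the receptor on which microglia depend for survival, had 9.56, 9.68 and 9.71 on the cuprizone arrays, against 7.43 and 7.57 on the control arrays, so that the 3 cuprizone values lay within 0.2 of each other and both controls more than 1.5 below. The change was 2.15 ± 0.23 (4.44-fold, adjusted p = 1.31e-05). Csf1r, which encodes that receptor, changed by -0.14 ± 0.08 and was not called. Igf1, a growth factor for cells of the oligodendrocyte lineage, had 7.02, 7.06 and 8.12 on the cuprizone arrays, against 5.90 and 5.58 on the control arrays, a change of 1.66 ± 0.23. Lgals3, a galectin that binds damaged lysosomes, had 8.26, 8.49 and 8.65 on the cuprizone arrays, against 6.22 and 6.38 on the control arrays, a change of 2.17 ± 0.14 with a small spread in each group. The galectin-3 binding protein Lgals3bp rose by 2.05 ± 0.27, and Flt1, a receptor for vascular growth factors that is also an endothelial marker, by 1.46 ± 0.29 (0.96 without WT cuprizone 3). Of the other 4 endothelial or pericyte markers none was called, Pecam1 changing by -0.23 ± 0.21. Of the 13 growth factors and their receptors measured, Csf1, Igf1 and Flt1 were the only ones called. The calls of Csf1, Igf1, Lgals3 and Lgals3bp held with any 1 of the 5 arrays left out. Without either control alone the call of Flt1 was lost (rises of 1.35 to 1.57).

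**Figure D2:**
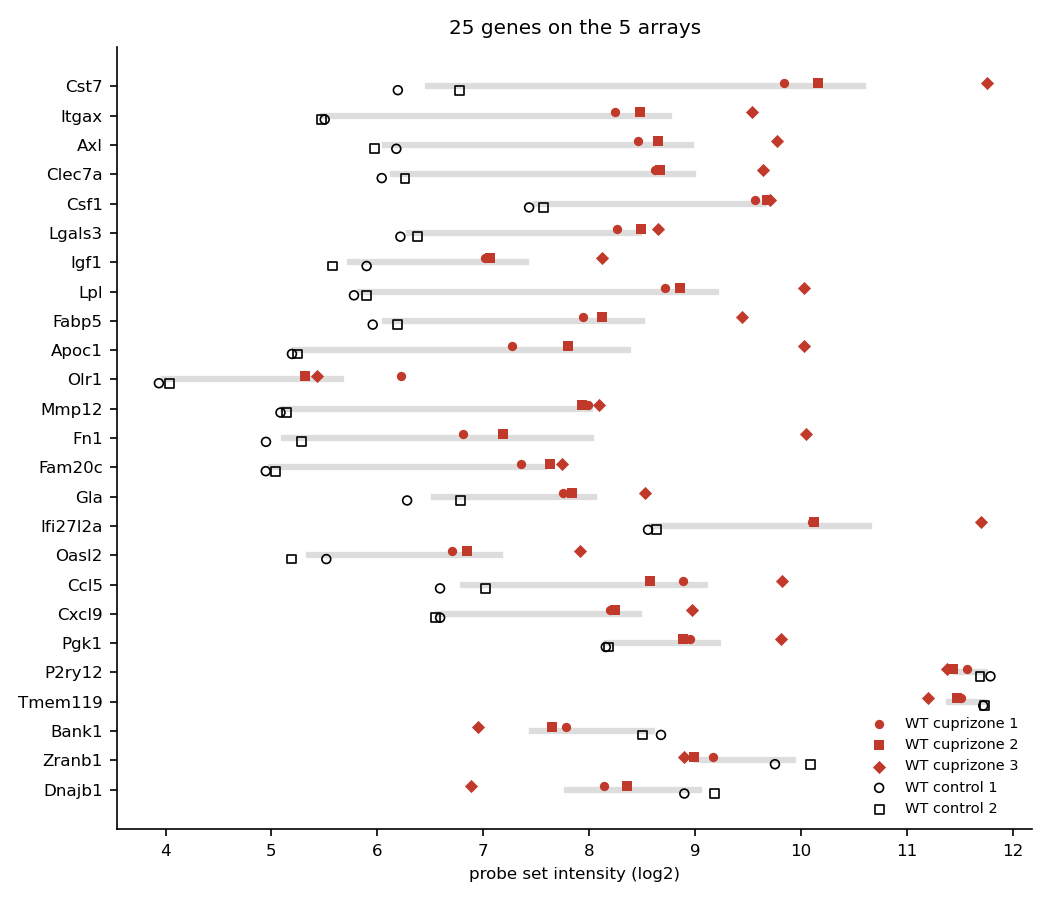
Log2 intensity (horizontal) of 25 genes on the 3 WT cuprizone arrays (filled red, upper) and the 2 WT control arrays (open black, lower); the grey bar joins the group means. WT cuprizone 3 (diamond) is the highest array for most rises such as Fn1 and Apoc1, while the 3 cuprizone arrays lie close together for Mmp12, Csf1, Fam20c and Lgals3.

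Promoters of the called late DAM genes were read for TGANTCA, a loose form of the AP-1 motif bound by Fos and Jun dimers. That motif has C or G at the centre, whereas the search took any base there. The window ran from 250 bases before to 50 after the RefSeq start on GRCm38.p6. Among late DAM genes 5 of 17 with a window held TGANTCA on either strand, and among the called ones 5 of 13 (38.5%). It occurred in 20 of 172 (11.6%) of all genes called higher with a window, which include those 13. Of the 9446 tested genes with a window 6.2% held it. The share was also high in the interferon-response list described below, at 7 of 27 (25.9%), and 4 of 13 (30.8%) of its called members. The 5 are Cst7, Gpnmb, Igf1, Itgax and Mmp12. The base at the centre is T in Cst7 and A in Igf1, so these 2 matches lack the stricter motif. The shares were not counted for the stricter motif. The members were chosen with results known, so no test is given. A match is only a stretch of letters. The windows of the 3 whose match lies wholly before the start are shown as examples, with the match in capitals. The matches begin 56, 44 and 37 bases before the start. The stretches lie at chr7:128129474-128129520, plus strand, chr9:7347310-7347356, plus strand and chr10:87861054-87861100, plus strand.
Itgax: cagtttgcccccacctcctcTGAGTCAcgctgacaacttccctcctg
Mmp12: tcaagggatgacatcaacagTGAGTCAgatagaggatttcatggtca
Igf1: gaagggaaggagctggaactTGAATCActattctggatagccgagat
The measured immediate-early list, which holds Fos and Jun, had 0 of 29 members called and a median change of -0.40, or -0.02 without WT cuprizone 3.

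Of 10 measured early DAM genes Lgals3bp, Cstb and Ctsb were called higher, and the median was 0.16. Apoe, the main lipid carrier made by glia, had 12.66, 12.58 and 12.72 on the cuprizone arrays, against 12.05 and 12.16 on the control arrays. All cuprizone arrays lay above the controls, but its change of 0.55 ± 0.15 just missed the threshold (adjusted p = 0.0518). The lipid-sensing receptor gene Trem2 had 10.41, 10.38 and 10.75 on the cuprizone arrays, against 10.34 and 10.38 on the control arrays, and its adaptor Tyrobp had 12.19, 12.15 and 12.20 on the cuprizone arrays, against 11.99 and 12.12 on the control arrays. Neither was called, with changes of 0.15 ± 0.13 and 0.12 ± 0.09. None of the 18 measured genes of the Trem2 and Tyrobp signalling chain passed the test in either direction, and their median was 0.04.

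Several genes of lipid uptake and cholesterol handling were higher with cuprizone. Among 15 genes of lipid uptake and droplets 5 were called higher (median 0.49), and among 17 of cholesterol efflux and its LXR control 4 were (median 0.36); none of either list was lower. Without WT cuprizone 3 the counts were 3 and 3. Lpl, the lipase that frees fatty acids from lipoproteins, had 8.72, 8.86 and 10.03 on the cuprizone arrays, against 5.78 and 5.90 on the control arrays, a change of 3.36 ± 0.30 (10.3-fold, adjusted p = 1.09e-06). The fatty acid carrier Fabp5 read 7.94, 8.12 and 9.44 on the cuprizone arrays, against 5.96 and 6.19 on the control arrays, which is 2.43 ± 0.33 higher. In both genes every cuprizone array lay more than 1.5 above both controls. Olr1, a scavenger receptor for oxidised lipoprotein, had 6.22, 5.32 and 5.43 on the cuprizone arrays, against 3.94 and 4.04 on the control arrays. It is the gene among these in which WT cuprizone 1 and not 3 was highest, and its control level lies below the array medians. The change was 1.67 ± 0.20. Plin2, which coats lipid droplets, rose by 0.77 ± 0.18, and Lipa, the lysosomal lipase, by 0.58 ± 0.14. Apoc1, an apolipoprotein encoded next to Apoe, had 7.27, 7.80 and 10.03 on the cuprizone arrays, against 5.19 and 5.25 on the control arrays, and Ch25h, which makes an oxysterol from cholesterol, had 6.59, 7.09 and 9.93 on the cuprizone arrays, against 4.90 and 4.94 on the control arrays. In both genes WT cuprizone 3 lay more than 2 above the other cuprizone arrays. The changes were 3.14 ± 0.57 and 2.95 ± 0.55 with all arrays and 2.31 and 1.92 without WT cuprizone 3. The cholesterol exporters Abca1 (0.36 ± 0.12) and Abcg1 (0.72 ± 0.19, adjusted p = 0.0523), named after their values were seen, were not called. Nceh1, which hydrolyses stored cholesteryl ester, rose by 1.97 ± 0.26, and Tspo, the mitochondrial cholesterol-binding protein used as an imaging marker of glial activation, by 1.09 ± 0.28. Of 19 genes of cholesterol synthesis only Dhcr7, its last enzyme, was called (1.01 ± 0.21), and the median was 0.18. The calls of Lpl, Fabp5, Olr1 and Nceh1 held with any 1 of the 5 arrays left out. With WT cuprizone 3 left out, Plin2 (0.71), Lipa (0.48), Tspo (0.69) and Dhcr7 (0.93) were no longer called. Calls lost without either control alone were those of Plin2, Apoc1, Ch25h and Tspo and without WT control 1 those of Lipa and Dhcr7 (rises of 0.35 to 3.17).

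Among 15 cathepsins and cystatins 6 were called higher and none lower, with a median of 0.20. Besides Cst7 these were Ctse, an aspartic protease (1.46 ± 0.35), the cytosolic cystatin Cstb (1.05 ± 0.18), and the cathepsins Ctsz (0.72 ± 0.12), Ctsh (0.58 ± 0.14) and Ctsb (0.51 ± 0.11). The highly expressed cathepsin genes Ctss (-0.02 ± 0.09) and Ctsd (0.02 ± 0.08) were not called, and their groups overlapped. Of 30 lysosomal hydrolases 6 were called higher, with a median of 0.23, but 1 remained above the threshold without WT cuprizone 3. That 1 is Gla, the galactosidase that trims globosides, at 7.76, 7.84 and 8.53 on the cuprizone arrays, against 6.28 and 6.78 on the control arrays. Every cuprizone array lay about 1 or more above the controls, a change of 1.51 ± 0.19 (adjusted p = 0.000109). Gm2a (0.75 ± 0.20), the activator for ganglioside breakdown, Gusb (0.66 ± 0.17), Naglu (0.65 ± 0.17) and Gaa (0.64 ± 0.15) were the other called members with Lipa. In the membrane and proton pump list 2 of 25 were called, the pump subunits Atp6v0d2 (1.33 ± 0.27) and Atp6v1f (0.58 ± 0.14), while Lamp1 (0.23 ± 0.11) and Cd68 (0.21 ± 0.09) were not. The call of Gla held with any 1 of the 5 arrays left out. Ctse (0.90), Ctsh (0.49), Ctsb (0.47), Gm2a (0.58), Gusb (0.45), Naglu (0.47), Gaa (0.46) and Atp6v1f (0.45) fell short of the threshold without WT cuprizone 3. Without either control alone the calls of Ctse, Ctsh, Ctsb, Gm2a, Gusb, Naglu, Gaa, Atp6v0d2 and Atp6v1f were lost and without WT control 1 those of Cstb and Ctsz (rises of 0.44 to 1.57).

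The lysosomal promoters were read for GTCACGTG, the core of the CLEAR element bound by TFEB and its relatives. It occurred on either strand in 2 of 6 called hydrolases, Gla and Naglu, and in 5 of 27 hydrolases with a window. The share was 3.49% of genes called higher with a window (6 of 172) and 4.71% of the 9446 tested genes with a window. A gene with several windows was counted if any of them held the element. In the list of lysosomal membrane proteins and pumps the element occurred in 5 of 19 genes with a window, and in 0 of 1 of the called members. The windows of Gla and Naglu are shown with the element in capitals, 196 and 75 bases before the start, at chrX:134601174-134601221, minus strand, and chr11:101069999-101070046, plus strand.
Gla: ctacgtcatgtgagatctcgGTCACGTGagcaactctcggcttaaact
Naglu: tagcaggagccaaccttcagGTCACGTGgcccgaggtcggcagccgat
Gla and Naglu read higher on all 3 cuprizone arrays than on both controls, with changes of 1.51 ± 0.19 and 0.65 ± 0.17.

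Genes of the matrix and of adhesion included some of the steepest rises. Of 30 measured 10 were called higher, none lower, and 9 were called without WT cuprizone 3. Mmp12, the macrophage elastase, had 7.99, 7.94 and 8.09 on the cuprizone arrays, against 5.09 and 5.14 on the control arrays. The 3 cuprizone arrays lay within 0.2 of each other and the controls lay just below the array medians, for a change of 2.89 ± 0.15 (adjusted p = 1.55e-10) whose size is therefore not exact. Fn1, fibronectin, had 6.81, 7.18 and 10.05 on the cuprizone arrays, against 4.95 and 5.28 on the control arrays, and so differed more among the cuprizone arrays than any other gene of this list. Its change was 2.90 ± 0.54 with all arrays and 1.88 without WT cuprizone 3. Fam20c, the Golgi kinase that phosphorylates secreted proteins such as osteopontin, had 7.35, 7.63 and 7.74 on the cuprizone arrays, against 4.95 and 5.04 on the control arrays, a change of 2.58 ± 0.13 with little spread in either group. Capg, which caps actin filaments, rose by 1.82 ± 0.29, Anxa5, which binds exposed phosphatidylserine, by 1.24 ± 0.17, Postn, a matrix protein, by 1.15 ± 0.21, and the hyaluronan receptor Cd44 by 1.02 ± 0.16. Among the 20 largest rises were also the sulfotransferase Chst2 (2.35 ± 0.25) and the class I myosin Myo1e (2.14 ± 0.32). The integrin chains Itgam (0.06 ± 0.11) and Itgb5 (-0.15 ± 0.13) were not called. Fn1 and Cd44 also stand in the list of 10 monocyte markers as its only called members. Ccr2, the receptor that defines inflammatory monocytes, read 6.54, 6.29 and 6.20 on the cuprizone arrays, against 6.22 and 6.43 on the control arrays, and the monocyte list had a median of -0.11. The calls of Mmp12, Fam20c, Capg, Anxa5, Chst2 and Myo1e held with any 1 of the 5 arrays left out. Leaving out WT control 1 ended the calls of Fn1 and Postn and leaving out WT control 2 that of Cd44 (rises of 0.80 to 2.73).

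A large share of the interferon-response genes was higher with cuprizone. Of 34 measured 16 were called higher and none lower, against 1.8% of all genes tested called higher. On every cuprizone array 28 lay above both controls, against 15.3% of all genes tested, and the list's median change was 0.68. Without WT cuprizone 3 there were 11 calls and a median of 0.47. Ifi27l2a, a small interferon-induced protein, had 10.11, 10.13 and 11.70 on the cuprizone arrays, against 8.56 and 8.63 on the control arrays, a change of 2.05 ± 0.34 (adjusted p = 0.00198). Oasl2, which belongs to the 2'-5' oligoadenylate synthetase family, had 6.70, 6.85 and 7.91 on the cuprizone arrays, against 5.52 and 5.19 on the control arrays, a change of 1.80 ± 0.27. Ifit2, an RNA-binding antiviral protein, rose by 1.92 ± 0.30, Slfn5 by 1.52 ± 0.27 and the receptor transport protein gene Rtp4 by 1.50 ± 0.27. WT cuprizone 3 was highest for all 5 of these genes, and WT cuprizone 1 and 2 were also above both controls. The RNA sensor gene Ddx58 (0.28 ± 0.15) and Parp14 (0.22 ± 0.14) were among the members not called. In antigen processing for MHC class I 1 of 14 genes was called, the proteasome activator Psme1 (0.55 ± 0.11), and the median was 0.26. Of 13 genes of MHC class II and costimulation the protease Ctse and the checkpoint ligand Cd274 (0.77 ± 0.15) were higher and Cd80, a ligand of CD28, was lower (-0.70 ± 0.18). The class II genes Cd74 (0.42 ± 0.15) and H2-Aa (0.42 ± 0.18) were not called. The calls of Ifi27l2a, Oasl2 and Ifit2 held with any 1 of the 5 arrays left out. With WT cuprizone 3 left out, Cd80 (-0.50) was no longer called. Calls lost without either control alone were those of Psme1, Cd274 and Cd80 and without WT control 2 those of Slfn5 and Rtp4 (rises of 0.52 to 1.23 and changes of -0.82 to -0.59).

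The interferon-stimulated response element was searched as GAAANNGAAA on both strands. Of the interferon list's members with a window it occurred in 6 of 13 called ones (46.2%) and in 15 of 27 in all (55.6%). Among genes with a window it occurred in 16 of 172 called higher (9.3%) and in 3.64% of the 9446 tested. Called members thus held it no more often than the list as a whole. Windows are shown for 3 of the 6, Slfn5, Ifit1 and Ifit3, the last 2 named for their sequence. Capitals mark each match, and the stretches lie at chr11:82951927-82951976, plus strand, chr19:34640765-34640833, plus strand, and chr19:34583353-34583436, plus strand. Ifit1 and Ifit3 hold the element 2 times each, read on the opposite strand.
Slfn5: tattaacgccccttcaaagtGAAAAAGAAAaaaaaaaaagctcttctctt
Ifit1: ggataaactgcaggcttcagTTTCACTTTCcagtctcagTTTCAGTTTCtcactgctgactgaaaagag
Ifit3: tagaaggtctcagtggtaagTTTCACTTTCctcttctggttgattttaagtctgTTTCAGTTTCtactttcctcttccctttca
Slfn5 read 6.37, 6.31 and 6.94 with cuprizone and 5.37 and 4.67 without. Ifit1 read 5.72, 5.73 and 6.31 with cuprizone and 5.20 and 4.83 without. Ifit3 read 8.45, 8.20 and 9.01 with cuprizone and 7.40 and 7.13 without. The cuprizone and control arrays of the 3 genes did not overlap. The calls of Ifit1 (1.09 and 0.72) and Ifit3 (1.42 and 1.15) were lost without WT control 1 and without WT control 2, and that of Ifit1 also without WT cuprizone 3 (0.71).

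Single chemokine genes rose. Of 13 CC chemokines and receptors 2 were called higher, and of 11 CXC chemokines and receptors 4 were higher and 1 lower. Ccl5, which draws T cells and monocytes, had 8.89, 8.57 and 9.82 on the cuprizone arrays, against 6.59 and 7.02 on the control arrays, a change of 2.29 ± 0.35. Cxcl9, an interferon-gamma target that binds Cxcr3, had 8.19, 8.24 and 8.97 on the cuprizone arrays, against 6.59 and 6.55 on the control arrays, a change of 1.90 ± 0.31. Neither gene's groups overlapped. Cxcr4, the receptor of Cxcl12, had 8.77, 8.90 and 9.05 on the cuprizone arrays, against 7.41 and 7.28 on the control arrays, with the 3 cuprizone arrays near each other and a change of 1.56 ± 0.28. Ccl6 rose by 1.42 ± 0.24, Cxcl14 by 1.05 ± 0.26 and the scavenging chemokine Cxcl16 by 0.77 ± 0.11. The platelet chemokine Pf4, also a border macrophage marker, was lower (-0.76 ± 0.20). The abundant Ccl4 (0.37 ± 0.40) was not called. Cxcl2, a neutrophil attractant, had 9.94, 10.14 and 5.89 on the cuprizone arrays, against 10.21 and 10.12 on the control arrays, so it was low on WT cuprizone 3 alone, and was not called (adjusted p = 0.47). In the IL-1 and TNF list 2 of 27 were called higher, the IL-1 receptor antagonist Il1rn (1.10 ± 0.17) and the CD30 ligand Tnfsf8 (1.53 ± 0.36). The median of that list was -0.19 with all arrays and 0.09 without WT cuprizone 3, so its sign turned on that array. The calls of Ccl5, Cxcl9, Cxcl16 and Il1rn held with any 1 of the 5 arrays left out. Cxcl14 (0.60), Pf4 (-0.68) and Tnfsf8 (1.01) fell short of the threshold without WT cuprizone 3. Without either control alone the calls of Cxcl14, Pf4 and Tnfsf8 were lost, without WT control 1 that of Ccl6, without WT control 2 that of Cxcr4 and without WT cuprizone 2 that of Pf4 (rises of 0.98 to 1.54 and changes of -0.86 to -0.67).

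Receptors for debris, antibody and glycans moved in both directions. Of 5 Fc receptors Fcgr4 rose (1.02 ± 0.26) and the high-affinity receptor Fcgr1 (0.14 ± 0.13) was not called. Of 14 genes of Toll-like receptor sensing Tlr2 was called (0.48 ± 0.10). No complement gene among 11 was called, and the C1q subunit genes changed by 0.07 ± 0.09 (C1qa), -0.06 ± 0.08 (C1qb) and 0.01 ± 0.08 (C1qc). Of 11 C-type lectins Clec7a rose and Clec4a3, a lectin of the Dcir cluster, fell by 0.65 ± 0.15. The list's median was -0.44. Of 11 Siglec and CD300 genes Cd22 (0.79 ± 0.18), which binds sialic acid and is also a B cell marker, and the lipid receptor Cd300lf (0.70 ± 0.15) rose, and the inhibitory Siglece fell by 0.60 ± 0.15. The B cell marker Bank1, a scaffold of antigen receptor signalling, fell. It had 7.78, 7.65 and 6.95 on the cuprizone arrays, against 8.68 and 8.50 on the control arrays, so that the groups did not overlap and the fall was 1.13 ± 0.21 (adjusted p = 0.005). The B cell gene Cd79b (-0.44 ± 0.15) was not called. Fcgr4 (0.67), Clec4a3 (-0.55), Cd22 (0.65), Cd300lf (0.64) and Siglece (-0.46) were not called without WT cuprizone 3. Leaving out either control alone ended the calls of Fcgr4, Tlr2, Clec4a3, Cd22 and Siglece, leaving out WT control 1 that of Bank1, leaving out WT control 2 that of Cd300lf, leaving out WT cuprizone 1 that of Siglece and leaving out WT cuprizone 2 that of Cd22 (rises of 0.44 to 1.07 and changes of -1.04 to -0.53).

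Homeostatic microglial genes had small negative changes. All 21 measured members had a negative change, against 6270 of the 11830 genes tested. Of the 21, 17 lay below both controls on every cuprizone array, against 17.6% of all genes. The list's median was -0.24, or -0.16 without WT cuprizone 3. On the Covi-Ox diet it was -0.41, with 15 members called lower. On chow only Upk1b, a uroplakin, passed the test (-0.68 ± 0.18). P2ry12, the ADP receptor that steers microglial processes, had 11.57, 11.44 and 11.38 on the cuprizone arrays, against 11.79 and 11.69 on the control arrays, a change of -0.28 ± 0.09 (adjusted p = 0.113). Tmem119, a surface protein used to mark microglia, had 11.51, 11.48 and 11.20 on the cuprizone arrays, against 11.72 and 11.74 on the control arrays, a change of -0.33 ± 0.10 (adjusted p = 0.0911). The cuprizone arrays of both genes lay below the controls by less than 0.6 on any array. The fractalkine receptor Cx3cr1 changed by -0.19 ± 0.10 and the identity factor Sall1 by -0.08 ± 0.15. Among 18 transcription factors of microglial identity only Bhlhe40, a repressor that stands also in the hypoxia list, was called. It read 5.48, 5.82 and 7.47 on the cuprizone arrays, against 3.85 and 3.63 on the control arrays, a change of 2.52 ± 0.39, and its controls lay below the array medians. Of 17 purinergic and lipid mediator genes Cysltr1, the leukotriene receptor, fell by 0.57 ± 0.12 and Alox5ap, which serves leukotriene synthesis, fell by 0.38 ± 0.10. The call of Bhlhe40 held with any 1 of the 5 arrays left out. With WT cuprizone 3 left out, Upk1b (-0.48), Cysltr1 (-0.55) and Alox5ap (-0.35) were no longer called. Calls lost without either control alone were those of Upk1b, Cysltr1 and Alox5ap and without WT cuprizone 2 that of Alox5ap (changes of -0.78 to -0.37).

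**Figure D3:**
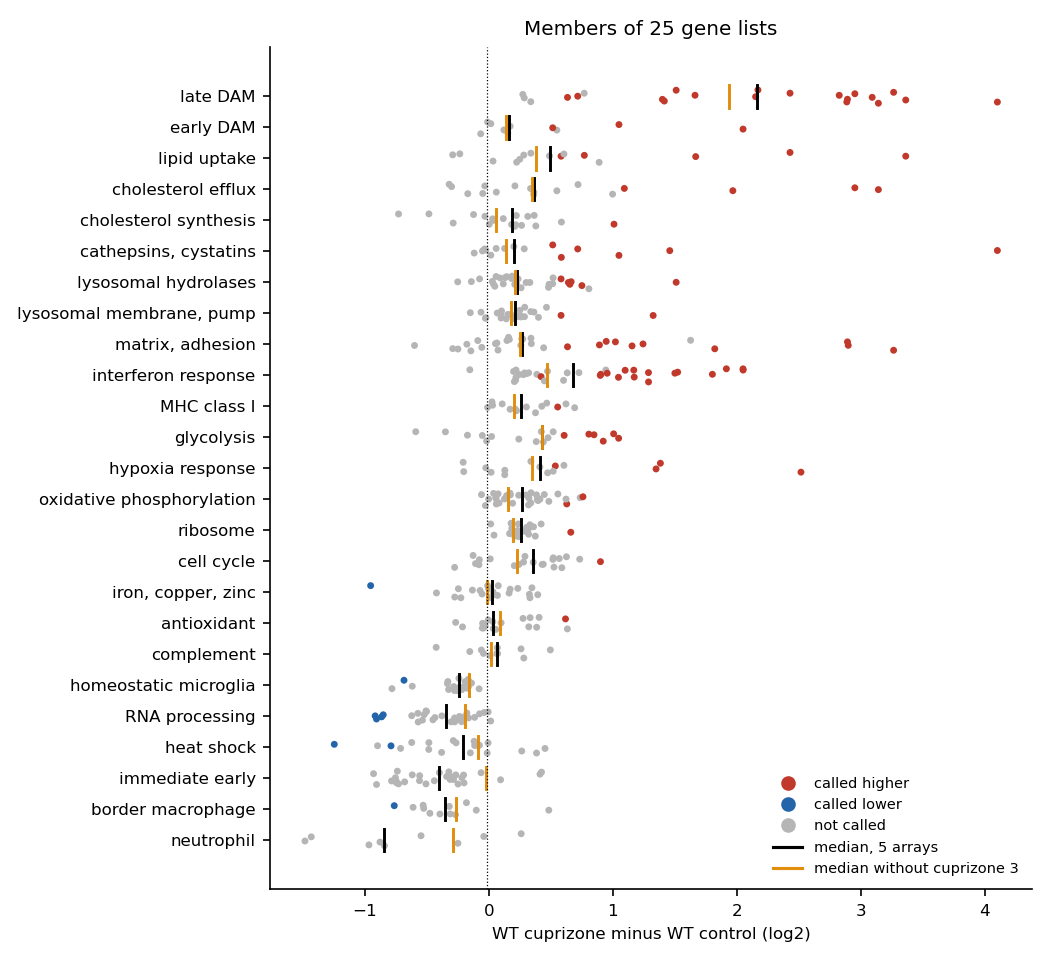
Log2 change (WT cuprizone minus WT control, horizontal) of the measured members of 25 gene lists, each point a gene, red if called higher, blue if called lower, grey if neither. Black ticks are list medians over the 5 arrays, orange ticks the medians without WT cuprizone 3, and the dotted line the median of all genes (-0.02). The late DAM median of 2.16 stands far to the right, and the neutrophil and immediate-early medians move most toward 0 without WT cuprizone 3.

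Several genes of glycolysis were higher. Of 18 measured 6 were called higher and none lower, with a median of 0.43, and 4 of the 6 stayed called without WT cuprizone 3. Pgk1, which makes the first ATP of the pathway, had 8.95, 8.89 and 9.82 on the cuprizone arrays, against 8.16 and 8.19 on the control arrays, a change of 1.05 ± 0.20. Every cuprizone array lay above both controls. Pkm, the last enzyme of the pathway, rose by 1.01 ± 0.18, Tpi1 by 0.92 ± 0.15, Pgam1 by 0.81 ± 0.16, Aldoa by 0.61 ± 0.14 and the lactate exporter Slc16a3 by 0.85 ± 0.21. The glucose carrier Slc2a1 (0.52 ± 0.14) was not called. In the hypoxia list 4 of 15 rose. These were Bhlhe40, the cytokine Mif (1.38 ± 0.21), the oxygen sensor Egln3 (1.35 ± 0.36) and the transcription factor Hif1a (0.54 ± 0.14), and the median was 0.41. Of 34 subunits of oxidative phosphorylation 31 had a positive change, with a median of 0.27, or 0.15 without WT cuprizone 3. In this list 2 were called, Uqcrq (0.76 ± 0.14) and Cox4i1 (0.63 ± 0.14). Outside the list Cox6a2, the muscle-type subunit of cytochrome c oxidase, had 8.37, 8.53 and 10.73 on the cuprizone arrays, against 7.01 and 6.90 on the control arrays, a change of 2.25 ± 0.43 with WT cuprizone 3 more than 2 above the other cuprizone arrays, and of 1.49 without it. All 22 ribosomal protein genes were positive with a median of 0.26 (0.19 without WT cuprizone 3), and Rps19 was called (0.66 ± 0.14). Of all 11830 genes tested 5560 had a positive change. The call of Mif held with any 1 of the 5 arrays left out. Aldoa (0.46), Slc16a3 (0.54), Egln3 (0.73), Hif1a (0.37), Cox4i1 (0.49) and Rps19 (0.55) fell short of the threshold without WT cuprizone 3. Without either control alone the calls of Pgk1, Aldoa, Slc16a3, Egln3, Hif1a, Uqcrq, Cox4i1, Cox6a2 and Rps19 were lost, without WT control 1 those of Tpi1 and Pgam1 and without WT control 2 that of Pkm (rises of 0.51 to 2.31).

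Few genes of stress and metal handling were called. Among 22 genes of iron, copper and zinc handling the median was 0.02 and only the zinc importer Slc39a12 was called. It had 4.98, 4.94 and 4.71 on the cuprizone arrays, against 6.06 and 5.60 on the control arrays, so that all cuprizone arrays were lower (-0.95 ± 0.21, adjusted p = 0.0192). They lay below the array medians, so the size of this fall is not exact. The copper chaperone Atox1 (0.35 ± 0.15) was not called. Of 19 genes of antioxidant defence and of the NRF2 pathway, 1 was called, Pgd of the pentose phosphate pathway (0.62 ± 0.15). Hmox1, which breaks down haem, changed by 0.03 ± 0.27. The serine synthesis enzyme Psat1 rose by 1.39 ± 0.32 (0.84 without WT cuprizone 3) as the only called gene of 21 in the ATF4 list, and Birc5, an inhibitor of apoptosis needed for cell division, by 0.90 ± 0.21 as the only called gene of 21 in the cell cycle list (median 0.36). Slc39a12 (-0.87), Pgd (0.57) and Birc5 (0.56) were not called without WT cuprizone 3. Leaving out either control alone ended the calls of Pgd, Psat1 and Birc5, leaving out WT control 1 that of Slc39a12 and leaving out WT cuprizone 2 that of Pgd (rises of 0.53 to 1.42 and changes of -0.73).

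Among the called falls that of Dnajb1 was the deepest. Of 28 genes listed under RNA processing and nuclear retention 4 were called lower and none higher, with a median of -0.34, and 1 was called without WT cuprizone 3 (median -0.19). Zranb1, whose product Trabid removes ubiquitin and so is not itself a splicing factor, had 9.17, 8.99 and 8.90 on the cuprizone arrays, against 9.76 and 10.09 on the control arrays. The 3 cuprizone arrays lay at least 0.5 below both controls, and the fall was 0.91 ± 0.17 (adjusted p = 0.00519). Pcf11, which takes part in the cleavage of pre-mRNA ends and the termination of transcription, fell by 0.92 ± 0.22. Ice1, a subunit of the little elongation complex, fell by 0.87 ± 0.19, and the cyclin Ccnl1 by 0.85 ± 0.21. The nuclear RNA Malat1 (-0.28 ± 0.14) and the helicase Ddx5 (-0.57 ± 0.19) were not called. Of 20 heat shock genes Dnajb1, a cochaperone of Hsp70, and Dnajb4 were lower. Dnajb1 had 8.14, 8.36 and 6.89 on the cuprizone arrays, against 8.90 and 9.18 on the control arrays, a fall of 1.25 ± 0.32 that came to -0.79 without WT cuprizone 3, and Dnajb4 fell by 0.79 ± 0.16. The heat shock list had a median of -0.21, and the constitutive Hspa8 changed by -0.12 ± 0.13. In the list of the unfolded protein response Dnajb9 was lower (-0.69 ± 0.17) and Hspa5 was not called (-0.30 ± 0.16). With WT cuprizone 3 left out, Pcf11 (-0.59), Ice1 (-0.72), Ccnl1 (-0.56), Dnajb1 (-0.79), Dnajb4 (-0.61) and Dnajb9 (-0.61) were no longer called. Calls lost without either control alone were those of Pcf11, Ice1, Ccnl1, Dnajb1, Dnajb4 and Dnajb9, without WT control 2 that of Zranb1 and without WT cuprizone 2 that of Dnajb9 (changes of -1.39 to -0.66).

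The 20 largest falls without overlap of the groups also held the genes that follow. The deacetylase Sirt1 fell by 0.85 ± 0.19, the histone mark reader Ing2 by 0.78 ± 0.20, Epc2, a subunit of an acetyltransferase complex, by 0.72 ± 0.18, the TFIID subunit Taf7 by 0.78 ± 0.15 and Gabpb1, a subunit of the GABP transcription factor, by 0.77 ± 0.14. Nabp1, which binds single-stranded DNA, had 8.70, 8.39 and 7.41 on the cuprizone arrays, against 9.22 and 9.18 on the control arrays, and its fall of 1.03 ± 0.27 came to -0.65 without WT cuprizone 3. The RNA uridylyltransferase Tut7 fell by 0.82 ± 0.20, and Zfp943, a zinc finger gene, by 0.77 ± 0.16. Without WT cuprizone 3 the 10 falls that were still called were Bank1, Carns1, Gabpb1, Gm10790, Kif13a, Rtn1, Taf7, Tjp1, Zfp943 and Zranb1, some of which are named here only for that count. Sirt1 (-0.68), Ing2 (-0.67), Epc2 (-0.48), Nabp1 (-0.65) and Tut7 (-0.59) fell short of the threshold without WT cuprizone 3. Without either control alone the calls of Sirt1, Ing2, Epc2, Nabp1, Tut7 and Zfp943 were lost, without WT control 2 those of Taf7 and Gabpb1 and without WT cuprizone 2 that of Ing2 (changes of -1.05 to -0.66).

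The size of the response differed among the cuprizone arrays. WT cuprizone 3 was the highest of the 3 in 191 of the 213 called rises and the lowest in 66 of the 83 falls, but these calls used that array. For genes called in the WT mice on the Covi-Ox diet, the change itself was measured on other arrays, and the same count was made for them. WT cuprizone 3 still entered the estimate of each gene's spread, which was made over all arrays of the series. The choice of these genes is therefore not fully independent of that array. Of the 550 genes (4.65%) called higher with cuprizone on that diet, WT cuprizone 3 was highest in 462 (84%), against 37.6% of all genes tested. Their median change over the WT control mean was 0.33 on WT cuprizone 1, 0.35 on WT cuprizone 2 and 0.79 on WT cuprizone 3. Of the 375 genes (3.17%) called lower on that diet it was lowest in 268 (71.5%), against 40.8% of all genes, with medians of -0.18, -0.14 and -0.36. Not every rise was larger on WT cuprizone 3. Among the 213 called rises it lay less than 0.5 above the mean of the other 2 cuprizone arrays for 97 and more than 1 above it for 47. Mmp12, Csf1, Fam20c and Lgals3 are in the first set, and Fn1, Ch25h, Apoc1 and Cox6a2 in the second.

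**Figure D4:**
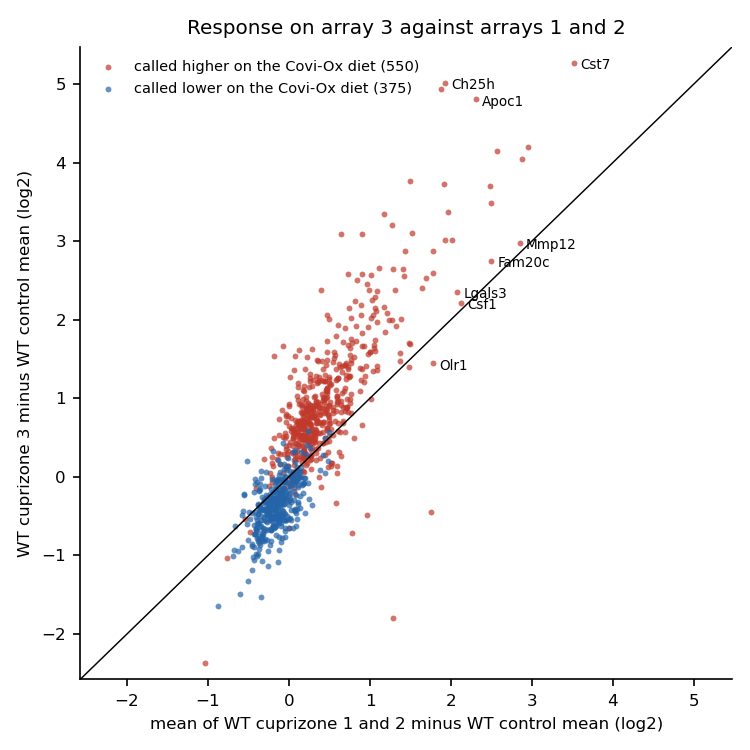
Change on WT cuprizone 3 over the WT control mean (vertical, log2) against the mean change on WT cuprizone 1 and 2 (horizontal, log2) for the 550 genes called higher (red) and 375 called lower (blue) with cuprizone on the Covi-Ox diet; the line marks equality. Most red points lie above the line, with medians of 0.79 on WT cuprizone 3 and 0.33 and 0.35 on the other arrays, while Mmp12, Csf1, Fam20c and Lgals3 lie near it.

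Most called rises on chow were called again on the Covi-Ox diet, and most called falls were not. The 6 arrays of that diet share none with the chow comparison, but the calls of both used a spread estimated over all arrays of the series. Of the 213 rises 175 were also called higher there, which is 31.8% of the Covi-Ox list and 82.2% of the chow list, and of the 83 falls 25 were also called lower (6.67% of the Covi-Ox list and 30.1% of the chow list). No gene was called in opposite directions. Cst7 changed by 4.05 ± 0.36 on the Covi-Ox diet and by 4.10 ± 0.40 on chow, Mmp12 by 3.09 ± 0.13 on the Covi-Ox diet and 2.89 ± 0.15 on chow, and Bank1 by -1.28 ± 0.19 on the Covi-Ox diet and -1.13 ± 0.21 on chow. Dnajb1 changed by -0.32 ± 0.28 on the Covi-Ox diet, against -1.25 ± 0.32 on chow. The difference between the 2 diets' cuprizone effects was called for 3 genes (0.0254%). Olr1 rose more on the Covi-Ox diet, by 1.97 ± 0.27. Ccn1, a matricellular growth regulator, had on chow 6.38, 7.19 and 6.87 on the cuprizone arrays, against 6.36 and 6.23 on the control arrays, and a diet difference of -1.86 ± 0.29. Tagap, a GTPase-activating protein of lymphoid and myeloid cells, had on chow 9.32, 9.58 and 9.56 on the cuprizone arrays, against 9.25 and 9.12 on the control arrays, and a diet difference of -1.43 ± 0.17. Neither gene was called on chow. Without WT cuprizone 3 the count of called diet differences was 32, and without WT control 2 it was 1. Tagap kept its diet call with any 1 of the 11 arrays left out, and Olr1 in 10 of the 11 and Ccn1 in 8 of the 11 such fits.

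**Figure D5:**
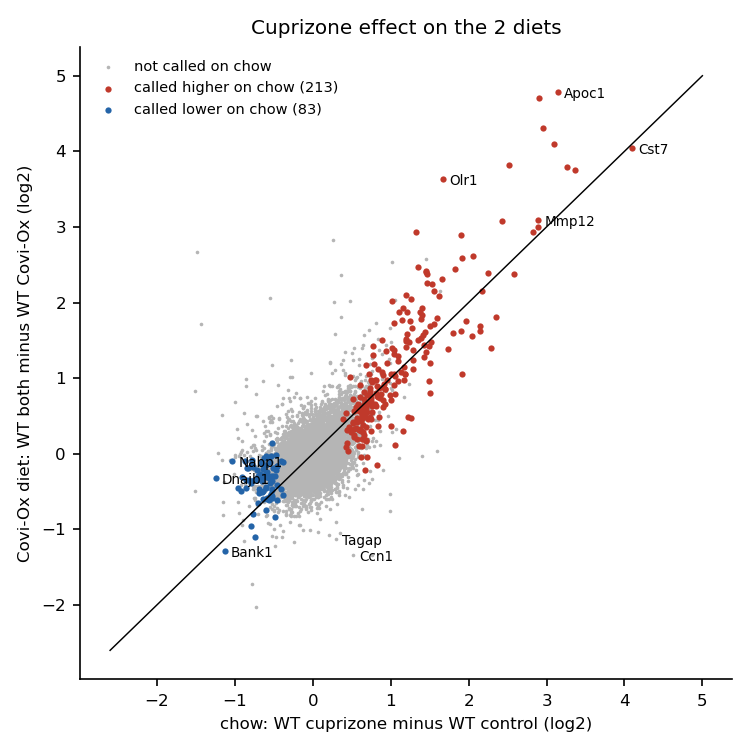
Cuprizone effect on the Covi-Ox diet (WT both minus WT Covi-Ox, vertical, log2) against that on chow (WT cuprizone minus WT control, horizontal, log2) for 11830 genes; 213 genes called higher on chow are red, 83 called lower are blue, and the line marks equality. Most red points are also positive on the Covi-Ox diet, Olr1 lies above the line, and Dnajb1 and Nabp1 lie nearer to 0 on the vertical axis than on the horizontal axis.

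The cuprizone effect differed between KO and WT mice for 27 genes (0.228%), 22 of them with a more negative effect in KO. For Mmp12 the effect was 0.07 ± 0.15 in KO and 2.89 ± 0.15 in WT, a difference of -2.82 ± 0.21. For Fam20c it was 0.48 ± 0.13 in KO and 2.58 ± 0.13 in WT, and for Lgals3 0.20 ± 0.14 in KO and 2.17 ± 0.14 in WT. Csf1 had an effect of 0.31 ± 0.23 in KO and 2.15 ± 0.23 in WT, and Gla one of 0.12 ± 0.19 in KO and 1.51 ± 0.19 in WT. The difference was called for all 5 genes. The count of 27 ran from 6 to 265 with 1 of the 10 arrays left out, 265 being the count without KO control 1. Mmp12, Fam20c and Lgals3 kept their genotype call with any 1 of the 10 arrays left out, and Csf1 in 7 of the 10, Gla in 6 of the 10 and Zranb1 in 2 of the 10 such fits. Zranb1, a called fall on chow, had a called difference in the other direction, at 0.27 ± 0.17 in KO and -0.91 ± 0.17 in WT. KO cuprizone 2 and 3 were low in immediate-early genes like WT cuprizone 3, and what this has to do with the difference was not tested.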

How the data were processed

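The authors deposited 1 table of intensity values for 22 mouse gene arrays, made with RMA, version not given in the sources used here, per the submitters' processing notes. The values were on a linear scale with nearly the same distribution on each array, and log2 was taken of them. RMA sets all arrays to 1 distribution, so a change in total RNA cannot be seen, and the number of arrays limits the precision. Of 28098 probe sets 21640 named 1 gene, 1321 named several and 5137 were not listed in the platform annotation. The probe set with the highest mean stood for each of 19937 genes, and the 11830 above the array median on at least 2 arrays were tested. Tests (2-sided) came from limma 3.58.1 in R 4.3.3, with 8 group means over all 22 arrays (14 residual degrees of freedom, prior 5.49), moderated variances and Benjamini-Hochberg adjustment over the 11830 genes. Calls required an adjusted p under 0.05, and errors after ± are standard errors of the fitted change (3 WT cuprizone and 2 WT control arrays). Labels of 6 KO arrays contradict each other, so these entered as 2 groups that serve only the estimate of the spread.

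The genes named were the 20 largest called rises and 20 largest called falls without overlap between the groups (clones and unnamed loci left out), the 10 smallest adjusted p, up to 6 called members and 3 uncalled members of highest level in each of 50 lists (715 genes tested), and a few defining genes; not all of them are printed. The members and lists were chosen with earlier results of these data known. In simulated data for this comparison 50 of 11830 genes were changed at each size. Recovered were 50% of the 1.5-fold changes, 82% of 2-fold, and 100% of 4-fold and of 8-fold changes, with 13 false calls. The simulated noise was normal, independent between genes and, for a gene, of the same size on every array. It held no array that stands apart as WT cuprizone 3 does, so these figures may not hold for the real arrays. Promoter windows came from RefSeq, build GRCm38.p6, and were matched by Entrez gene identifier to 9446 of the 11830 genes. Alternatives varied the replicate block, the arrays in the fit, an immediate-early covariate, the filter, normalization, probe set choice, variance model, array weights, threshold and each array left out.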

Additional observations from a re-analysis of the deposited data

Results flagged for a closer look

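The cuprizone effect differed between KO and WT mice, by the interaction term of the limma fit, for 17 of the genes described above or listed among the 27. All values are KO effect minus WT effect on the log2 scale, with the standard error. Of the late DAM genes the difference was -2.88 ± 0.36 for Itgax, -2.82 ± 0.21 for Mmp12, -2.77 ± 0.48 for Gpnmb, -2.56 ± 0.43 for Lpl, -2.19 ± 0.34 for Axl, -1.98 ± 0.20 for Lgals3, -1.85 ± 0.29 for Clec7a, -1.85 ± 0.32 for Csf1 and -1.78 ± 0.33 for Igf1. It was -2.77 ± 0.55 for Bhlhe40, -2.15 ± 0.41 for Capg, -2.10 ± 0.18 for Fam20c, -1.61 ± 0.28 for Olr1, -1.39 ± 0.26 for Gla and -0.80 ± 0.16 for the chemokine Cxcl16. All of these rose with cuprizone in WT, and each had a smaller effect in KO. The difference was positive for Zranb1 (1.17 ± 0.24) and for Eif2s3y (1.81 ± 0.36), a Y-linked translation factor gene that was not called in WT. The listed Y-linked genes Eif2s3y, Kdm5d and Uty had a median cuprizone effect of -0.18 in WT and 0.53 in KO. Sex is not given for any array, and its part in these genotype differences was not tested. With 1 of the 10 arrays left out in turn, the difference stayed called in all 10 fits for Mmp12, Fam20c, Lgals3 and Itgax. It stayed called in 9 of 10 for Axl and Clec7a, 7 for Gpnmb, Lpl and Csf1, 6 for Capg, Olr1 and Gla, 5 for Igf1, Bhlhe40 and Cxcl16, 3 for Eif2s3y and 2 for Zranb1, with no change of sign. The fit without WT control 1 lost all but Mmp12, Fam20c, Lgals3, Itgax and Axl of these 17. The genotype difference uses the 5 arrays of the WT comparison, so it is not separate evidence on the WT effect.

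Between the diets, the Covi-Ox minus chow difference of the cuprizone effect was called for Olr1 (1.97 ± 0.27, adjusted p = 0.00309), Tagap (-1.43 ± 0.17, adjusted p = 0.000634) and Ccn1 (-1.86 ± 0.29, adjusted p = 0.012).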

How the results depend on the processing

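With 2 controls and a median standard error of 0.151, small changes were at the limit of what these arrays could show. The count of 296 called genes (213 higher, 83 lower) fell most with the arrays in the fit. It was 9 (9 higher, 0 lower) with only the arrays compared, 176 (32 lower) with only the 11 WT arrays, and 184 (37 lower) without the 3 arrays low in immediate-early genes. In the 22-array fit there were 101 calls at a change of at least 2-fold (98 higher, 3 lower) and 104 at an adjusted p under 0.01 (98 higher, 6 lower). The lower calls alone also moved to 48 with the immediate-early mean as covariate, 41 with no filter, 125 with the filter at the 75th percentile and 53 with median centring. Fewer arrays and fewer or more genes tested are part of these settings by construction, and the cause of the other moves was not tested. With 1 of the 5 arrays left out the calls ran from 69 to 428, from 60 to 288 higher and from 3 to 140 lower.

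A fit with the replicate number as a replicate block called 183 genes (148 higher, 35 lower). Deviations of 71 same-numbered pairs correlated between -0.227 and 0.254 (median -0.000412), so the numbers were not taken to pair the samples, which was decided without regard to the calls.

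The genotype difference, 27 genes, was 4 with only the arrays compared, 84 with the covariate, 12 with array weights, 7 at an adjusted p under 0.01, and 6 to 265 with 1 array left out. The fit of only the 11 WT arrays gives no genotype difference. The diet difference, 3 genes, was 40 without the 3 arrays low in immediate-early genes, 5 with the covariate, 27 with array weights, and 1 to 32 with 1 array left out.

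Of the 103 called genes printed none changed sign under any alternative. Among those not called, 7 with changes near 0 did. C1qc was -0.000485 without the 3 low arrays, -0.0536 with quantile normalization and -0.000615 to 0.0295 with 1 array left out. Ctsd was -0.0915 with quantile normalization and -0.0209 to 0.0522 with 1 array left out. For Hmox1 these were -0.0256 and -0.044 to 0.133. Ctss was 0.00297 without the 3 low arrays, 0.00502 with array weights and -0.0795 to 0.00381 with 1 array left out. Hspa8 was 0.0222 without the 3 low arrays, 0.0131 with the covariate and -0.213 to 0.0222 with 1 array left out. Sall1 was 0.0145 without the 3 low arrays and -0.202 to 0.0439 with 1 array left out, and Ccr2 was -0.0877 to 0.121.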
